A study of Drosophila melanogaster with 10 samples.

Results

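Stalker and Stalker2 are LTR retrotransposons, mobile elements that carry a long terminal repeat (LTR) at each end and copy themselves through an RNA intermediate. They are 2 of the 122 transposon consensus sequences in the data set and were chosen by name. Stalker spans 7256 nt and Stalker2 spans 7672 nt of the 610009 consensus positions. Positions below are counted from the first nucleotide of each consensus; genomic copies were not analysed here.

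The small RNAs came from OSCs, a cultured line of somatic cells from the Drosophila melanogaster ovary. Argonaute-bound small RNAs were isolated and sequenced from 10 libraries. In the first experiment, wild-type OSCs received an siRNA against luciferase as control (siLuc, n = 3) or against Armitage (siArmi, n = 3), with a repeat transfection at 48 h and harvest at 96 h. In the second, an OSC line with an array of UAS sites beside the flamenco promoter received a plasmid for the Gal4 DNA-binding domain alone (Gal4, n = 2) or for Gal4 fused to the silencing domain of Panoramix (Gal4-Panx-IDR, n = 2). These transfections too were repeated at 48 h. The line was grown from single sorted cells and carried the array on both alleles. The Gal4-Panx-IDR cells were harvested on day 6 or day 7 and sorted for low GFP from a co-silenced reporter, whereas by their treatment label the Gal4 cells were not enriched by sorting (their description calls them sorted), so an effect of sorting and an effect of silencing cannot be told apart. The labels number the libraries without saying that they came from separate cultures, so p-values measure only the spread between these libraries.

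PIWI-interacting RNAs (piRNAs) guide the Piwi protein to nascent transposon transcripts, and those antisense to an element can pair with its mRNA. In ovarian somatic cells most of them come from flamenco, a piRNA cluster in which transposon remnants lie mainly in antisense orientation to its single long transcript. The RNA helicase Armitage brings such transcripts to the mitochondrial surface, where they are cut into piRNAs. LTR retrotransposons of the Ty3/gypsy class, to which both elements belong, are the main targets of this somatic pathway.

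Each value is the coverage by reads of 24 to 35 nt at a position and strand per 1000000 miRNA reads, and the level of an element is its mean coverage per nt. The miRNA reads behind each library, read from the smallest step between its values, numbered 1297626 to 1799370 in siLuc, 586560 to 875165 in siArmi, 87066 and 110492 in Gal4, and 151205 on day 6 and 117444 on day 7 in Gal4-Panx-IDR cells. At least 6209 antisense reads lay behind each element in each library. The smallest number of sense reads was 252 for Stalker2 and 295 for Stalker, both in siArmi cells. Replicate libraries differed by more than sampling noise. The 3′ adaptor differed between both experiments, so levels were tested only within an experiment, apart from the difference between both changes.

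Both elements were covered mainly by antisense piRNAs. In siLuc cells Stalker had an antisense level of 2488, 2453 and 1783 and a sense level of 50.4, 49.7 and 38.8. Stalker2 had an antisense level of 1270, 1270 and 918 and a sense level of 17.7, 17.4 and 14.2. Every antisense level was far above every sense level, and the siLuc library with replicate number 3 was the lowest on both strands of both elements. By mean antisense level Stalker ranked 7 and Stalker2 ranked 16 of 122 elements.

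Of the coverage of Stalker in siLuc cells, 98.0% ± 0.083 (SD, n = 3) was antisense, as was 98.6% ± 0.091 of that of Stalker2, against 91.5% ± 0.13 over all elements. The log2 ratio of the strands, antisense plus 1 over sense plus 1, was 5.56 ± 0.046 (SE) for Stalker and 6.04 ± 0.067 for Stalker2 (limma adjusted p = 1.39e-14 and 5.93e-14). An antisense excess was called for 65.8% of the 79 elements tested and a sense excess for 31.6%. In siLuc libraries Stalker had 1.94 ± 0.014 (SD, n = 3) times the antisense level of Stalker2.

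Armi depletion lowered the antisense piRNAs of both elements to a few percent of the control. In siArmi cells the antisense level of Stalker was 97.4, 87.3 and 84.2, and that of Stalker2 was 48.3, 40.3 and 40.2. The 3 siArmi libraries lay close together and did not overlap with the siLuc libraries on either element. Fewer cells with such piRNAs and fewer piRNAs per cell cannot be told apart in these bulk libraries, and the levels of Armitage and of the flamenco transcript were not analysed here. The levels left were 4.0% for Stalker and 3.72% for Stalker2. The log2 changes were −4.61 ± 0.20 (SE) and −4.70 ± 0.20 (limma adjusted p = 1.17e-58 and 1.32e-59). Scaled to the total transposon coverage, the changes were −0.27 (limma adjusted p = 5.35e-05) and −0.38 (limma adjusted p = 6.52e-05) beside a median of −0.065 over all elements. On the miRNA scale the test called a fall for 100% of the 50 elements tested, with a median of −4.30, and Stalker2 had the 8th and Stalker the 12th deepest fall. An exact permutation test over the libraries gave p = 0.1 for each element, the smallest value that 3 against 3 libraries allow. In this and most other fits limma took 1 spread for all elements of a given level, so adjusted p-values rest on that shared spread and not on an element's own replicates alone.

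Sense piRNAs fell as well. The sense level of Stalker was 2.43, 2.41 and 2.25 in siArmi cells, all below the siLuc libraries, with a log2 change of −3.80 ± 0.18 (limma adjusted p = 3.62e-42), which was 0.074 with scaling to total transposon coverage. Here too 100% of the 29 elements tested fell. The sense level of Stalker2 was 1.96, 2.46 and 2.07 in siArmi cells and did not overlap with that of siLuc cells either. Its mean over these libraries was below the filter of 10 for the test across elements, and its log2 change of −2.46 had an exact permutation p = 0.1. The Stalker to Stalker2 ratio of sense levels was 2.85, 2.86 and 2.74 in siLuc libraries and 1.24, 0.979 and 1.08 in siArmi libraries, so the ratios did not overlap (log2 change −1.35, exact p = 0.1).

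**Figure D1:**
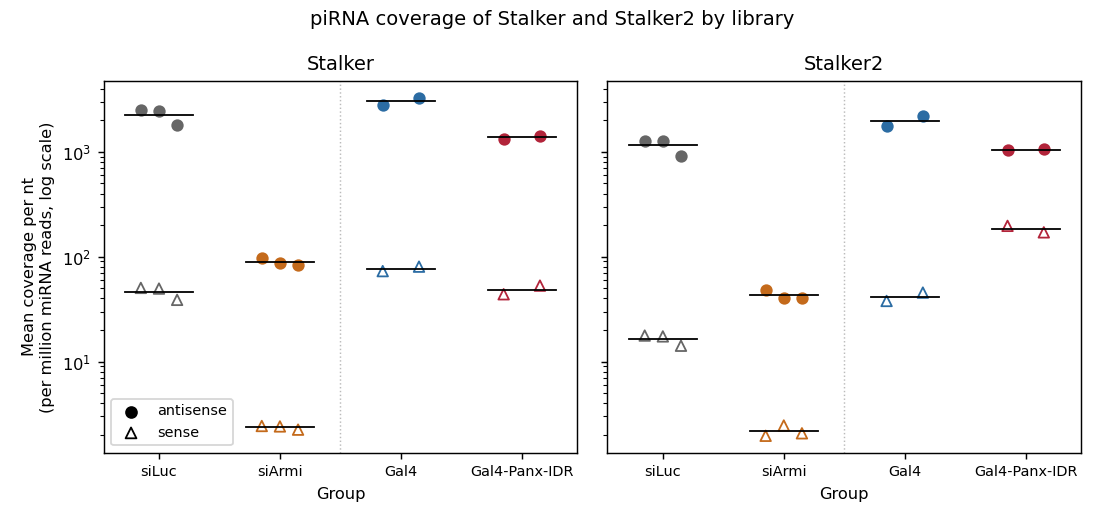
Mean piRNA coverage per nt (log axis, per 1000000 miRNA reads) of Stalker and Stalker2 in each library, with antisense as filled circles, sense as open triangles and a black line at each group mean. Antisense levels in the 3 siArmi libraries sit between 84.2 and 97.4 for Stalker and between 40.2 and 48.3 for Stalker2, and the 2 Gal4-Panx-IDR libraries lie above the Gal4 libraries only for sense Stalker2; the dotted line separates both experiments.

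Silencing of flamenco left far more of the antisense piRNAs than Armi depletion did. The antisense level of Stalker was 2800 and 3261 in Gal4 cells, and 1335 on day 6 and 1409 on day 7 in Gal4-Panx-IDR cells. The antisense level of Stalker2 was 1772 and 2185 in Gal4 cells, and 1044 and 1055 in Gal4-Panx-IDR cells. Both silenced libraries lay below both controls for each element. The ratio of the means was 0.453 ± 0.052 (error from the SDs, n = 2 each) for Stalker and 0.530 ± 0.078 for Stalker2.

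The log2 change was −1.14 ± 0.23 (SE) for Stalker (limma adjusted p = 4.1e-06) and −0.91 ± 0.23 for Stalker2 (limma adjusted p = 0.000325). The same test called a fall for 53.4% and a rise for 8.22% of the 73 elements tested, and the median change was −0.57. Without the day 6 library the call of Stalker2 was lost (limma adjusted p = 0.0502, change −0.90). Scaled to the total transposon coverage in place of miRNA reads, the median of all elements was 0.07, Stalker changed by −0.47 (limma adjusted p = 0.000197) and Stalker2 by −0.23 (limma adjusted p = 0.0771). Exact permutation over 2 against 2 libraries cannot give less than p = 0.33, which both elements had.

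The change on flamenco silencing was smaller than that on Armi depletion by a log2 difference of 3.48 ± 0.29 (SE) for antisense Stalker and 3.80 ± 0.29 for antisense Stalker2 (limma interaction, adjusted p = 1.31e-28 and 7.96e-32). That difference was called in the same direction for 100% of the 65 elements tested, and it was −0.20 for Stalker and 0.14 for Stalker2 when scaled to total transposon coverage. The Stalker to Stalker2 ratio of antisense levels was 1.58 and 1.49 in Gal4 cells and 1.28 and 1.34 in Gal4-Panx-IDR cells. These ratios did not overlap (log2 change −0.23, exact permutation p = 0.33), but with the median over positions as the level the change was 0.62.

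The whole-element levels hid a sharp difference along Stalker2. When each element was cut into 10 equal parts and the parts of all elements were tested together, antisense coverage fell in 10 of 10 parts of Stalker (6 when scaled to total transposon coverage) and in 8 of 10 parts of Stalker2. Over all elements, 49.1% of the 652 parts tested fell and 7.06% rose. In parts 1 to 4 and 8 to 10 of Stalker2, 0.270 to 0.337 of the Gal4 coverage was left. Part 5 (nt 3070 to 3836) had a mean coverage of 2977 in control and 2563 in silenced cells, a log2 change of −0.21 ± 0.22 (limma adjusted p = 0.464). Part 6 (nt 3837 to 4603) had 2429 and 2947, a log2 change of 0.29 ± 0.22 (limma adjusted p = 0.286). Neither middle part was called in either direction, whereas scaled to total transposon coverage both were higher (0.47 and 0.96, limma adjusted p = 0.00148 and 7.57e-07). Part 7 (nt 4604 to 5370), which straddles the end of this stretch, had 1823 and 1271 (log2 change −0.51 ± 0.23, limma adjusted p = 0.0437), and its change was 0.16 with total and 0.13 with median-ratio scaling. Its call was lost when Gal4 replicate 2 (limma adjusted p = 0.147), day 6 (limma adjusted p = 0.23) or day 7 (limma adjusted p = 0.314) was left out.

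**Figure D2:**
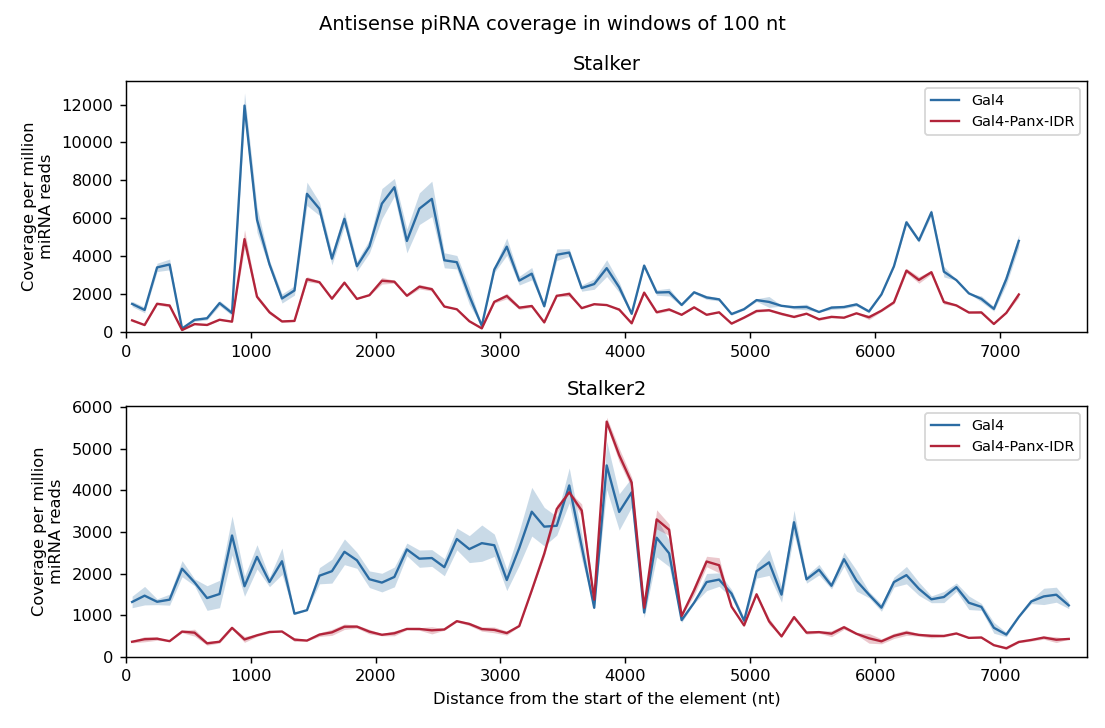
Antisense coverage per 1000000 miRNA reads in windows of 100 nt along Stalker (top) and Stalker2 (bottom), against the distance from the start of the element in nt, as group means (lines) with the range of the 2 libraries (bands). Gal4-Panx-IDR cells lie below Gal4 cells along all of Stalker. Between nt 3301 and 5100 of Stalker2 the lines lie closer and in part cross, and they are apart on either side.

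In windows of 100 nt the edges could be placed more closely. The stretch was taken as the longest run of windows with more than 0.5 of the Gal4 coverage left, chosen on Gal4 replicate 1 and day 6 after the profile had been seen, and it was then described in Gal4 replicate 2 and day 7. In Stalker2 it ran over 1900 nt from nt 3201 to 5100, or 24.8% of the element. Chosen instead on Gal4 replicate 2 and day 7, it ran over 1800 nt from nt 3301 to the same end. Libraries were paired by number only, since the Gal4 labels give no harvest day, so the pairs do not compare the days.

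Within the stretch the mean antisense coverage was 2180 and 2712 in Gal4 cells, 2680 on day 6 and 2506 on day 7. The groups overlapped there. Outside it the coverage was 1637 and 2012 in Gal4 cells, 506 on day 6 and 577 on day 7, with no overlap. Gal4 replicate 2 and day 7 did not set its edges, but the profiles had been seen when the rule was made. In that pair the coverage left was 0.924 inside and 0.287 outside, which is a description and no independent test. The single windows of that pair ranged from 0.398, in the first window of the stretch, to 1.20 inside, and from 0.202 to 0.433 outside. The ratio changed over several windows at each edge. With day 7 over Gal4 replicate 2, it went from 0.398 to 0.672 and 1.02 over 3 neighbouring windows from nt 3201. Towards the other end it was 1.00 in the window from nt 4701, then 0.741, 0.788 and 0.667. It went to 0.361 across nt 5100.

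The stretch was chosen for a high ratio, so leaving it out deepens the fall of the rest by construction, to −1.75 on the log2 scale. Over both libraries of each group, 0.297 of the coverage was left outside it. The stretch held 30.6% ± 0.19 (SD, n = 2) of the antisense coverage of Stalker2 in Gal4 cells and 61.2% ± 3.3 in Gal4-Panx-IDR cells. The share was 28.6% ± 0.36 (n = 3) in siLuc cells, against 24.8% of the length.

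Under Armi depletion the same stretch lost its piRNAs with the rest of the element. Its antisense coverage was 1486, 1457 and 1051 in siLuc cells and 58.8, 48.9 and 49.1 in siArmi cells, with no overlap, so that 3.93% was left inside and 3.64% outside. The ratio of coverage inside to outside was 1.22 ± 0.022 (SD, n = 3) in siLuc and 1.31 ± 0.007 in siArmi cells (exact permutation p = 0.1). All 10 parts of each element fell on Armi depletion, as did 100% of the 463 parts tested. The coverage left in the parts ranged from 0.034 to 0.049 for Stalker and from 0.027 to 0.047 for Stalker2.

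Stalker had no such block. The coverage left on flamenco silencing was lowest in parts 2 and 4 (0.364 and 0.357) and highest in part 8, nt 5080 to 5805 (0.663), where the mean coverage was 1330 in control and 881 in silenced cells (log2 change −0.59 ± 0.23, limma adjusted p = 0.0189). Its change was 0.081 with total and 0.053 with median-ratio scaling. The call of part 8 was lost without day 6 (limma adjusted p = 0.168) or day 7 (limma adjusted p = 0.311), and that of part 7 (0.592 left) likewise (limma adjusted p = 0.0924 and 0.0966). The longest run of Stalker windows over 0.5 spanned nt 4101 to 6100 on Gal4 replicate 1 and day 6, but its ratio was 0.565 in the other pair, against 0.409 outside. In all 72 windows of Stalker both silenced libraries lay below both controls, compared with 62 of 76 windows of Stalker2, while in 10 windows of Stalker2 both lay above. Windows of other elements were not counted, so these counts have no background share. Of the 652 parts of all elements tested, 49.1% fell and 7.06% rose. The changes of the 10 parts spanned 0.88 log2 units in Stalker and 2.17 in Stalker2. Among the 43 elements with 10 tested parts, whose median span was 0.74, Stalker2 had the 4th and Stalker the 15th widest span.

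**Figure D3:**
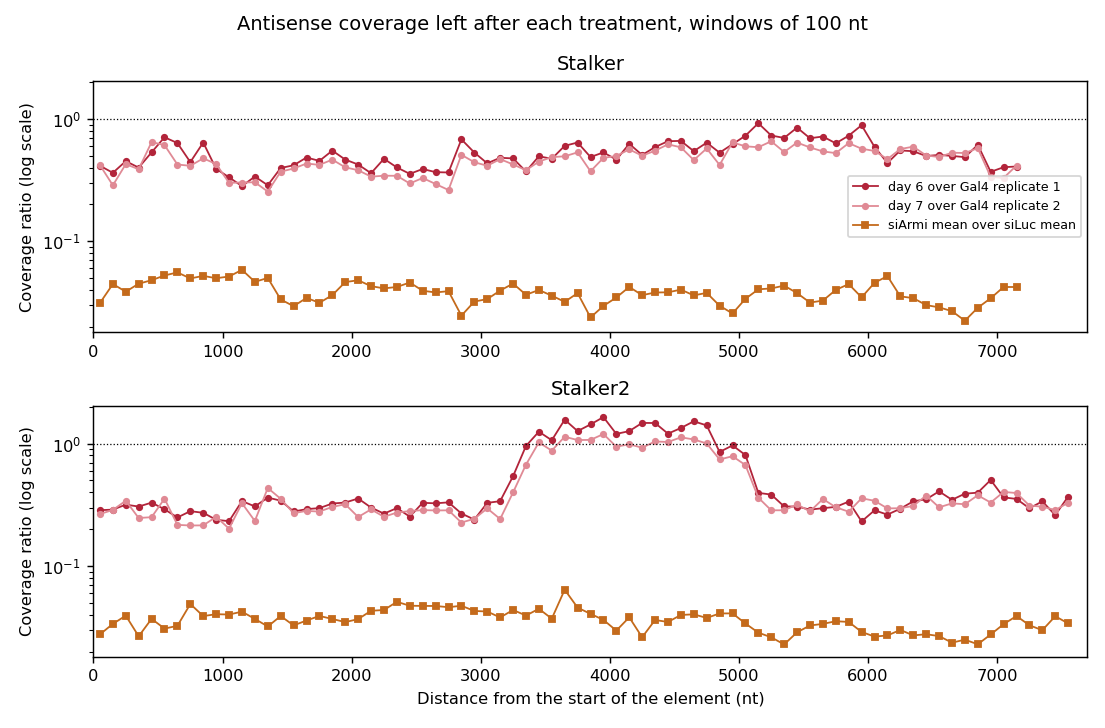
Antisense coverage left after each treatment, as a ratio to the control on a log axis, in windows of 100 nt against the distance from the start of the element in nt. In Stalker2, windows from nt 3301 to 5100 lie between 0.667 and 1.64 in both pairs of libraries, which were matched by number only. Those outside nt 3201 to 5100 lie between 0.202 and 0.504. The line for siArmi over siLuc is at or below 0.0640 throughout.

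On flamenco silencing sense piRNAs rose in Stalker2 and, scaled to miRNA reads, fell in Stalker. The sense level of Stalker2 was 37.9 and 45.5 in Gal4 cells, and 197 on day 6 and 171 on day 7 in Gal4-Panx-IDR cells, so the silenced libraries lay above the controls without overlap. It rose 4.41-fold ± 0.72 (error from the SDs), a log2 change of 2.12 ± 0.22 (SE, limma adjusted p = 1.2e-15). Among all 54 elements tested on the sense strand, 25.9% rose and 35.2% fell, and the median change was −0.25. The share that rose includes elements with a control mean below 10, which passed the filter only through the silenced libraries. By mean sense level Stalker2 moved from rank 29 in Gal4 cells to rank 8 of 122 elements in Gal4-Panx-IDR cells.

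The sense level of Stalker was 72.9 and 80.4 in Gal4 cells, and 43.8 and 53.0 in Gal4-Panx-IDR cells, with the silenced libraries lower and no overlap. The log2 change was −0.66 ± 0.21 (limma adjusted p = 0.00365). This call was lost without Gal4 replicate 2 (limma adjusted p = 0.0549, change −0.59) or without day 6 (limma adjusted p = 0.149, change −0.52), and with the total transposon coverage as scale the change was 0.0062. The Stalker to Stalker2 ratio of sense levels was 1.92 and 1.77 in Gal4 cells and 0.223 and 0.311 in Gal4-Panx-IDR cells. It thus fell by 2.77 on the log2 scale without overlap (exact permutation p = 0.33). The antisense share of coverage went from 97.9% ± 0.037 (SD, n = 2) to 85.1% ± 1.4 for Stalker2 and from 97.5% ± 0.093 to 96.6% ± 0.31 for Stalker.

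Sense coverage was concentrated in 1 short hotspot in each element, found in the siLuc libraries as the strongest run above 3 times the mean sense coverage, a rule added after the profile had been seen. In Stalker it spanned 288 nt, from nt 4819 to 5106, ending 2150 nt before the end of the element. In Stalker2 it spanned 283 nt, from nt 5135 to 5417, ending 2255 nt before the end. With 3.97% and 3.69% of the length, these hotspots held 88.2% ± 0.12 (SD, n = 3) and 63.7% ± 0.95 of the sense coverage in siLuc cells. The Stalker2 hotspot began 35 nt after the end of the retained antisense stretch.

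Both strands were covered at these places. In the Stalker hotspot of siLuc cells the sense coverage was 1118, 1104 and 862 and the antisense coverage 1035, 997 and 723. These values were nearly even, against 2548, 2513 and 1827 antisense and 6.28, 6.10 and 4.73 sense in the rest of the element. In the Stalker2 hotspot the sense coverage was 301, 301 and 248 and the antisense coverage 1486, 1485 and 1049, so that antisense reads prevailed.

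On flamenco silencing the Stalker hotspot and the rest of Stalker moved apart. Sense coverage in the hotspot was 1559 and 1686 in Gal4 cells, and 683 and 862 in Gal4-Panx-IDR cells, or 0.476 of the control. Outside the hotspot it was 11.4 and 14.0 in Gal4 cells, and 17.4 and 19.5 in Gal4-Panx-IDR cells, or 1.45 times the control. The groups did not overlap in either place, and the log2 change of Stalker sense coverage without the hotspot was 0.51. The ratio of hotspot to remainder was 129 ± 11 (SD, n = 2) in control and 41.7 ± 3.4 in silenced cells (exact permutation p = 0.33).

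The parts were tested on the sense strand as well. Of 7 parts of Stalker with enough sense coverage, part 7, which holds most of the hotspot, fell from 616 to 298 (log2 change −1.06 ± 0.18, limma adjusted p = 0.000585). Parts 5 and 6 had 9.44 and 4.12 in control and 21.4 and 22.3 in silenced cells. They passed the filter of 10 only through the silenced libraries and so had to differ, and their test supports nothing here. The remaining 4 parts were not called, with changes from −0.27 to 0.48. Over all elements 22.1% of the 425 parts tested fell and 20.9% rose.

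In Stalker2 sense coverage rose in every part whose control mean reached the filter. Parts 1, 2 and 7 to 10 had control means of at least 10, and all 6 rose, by 3.89-fold to 6.45-fold. The highest value was that of part 9, whose control mean of 10.0 was just at the filter. Of all 425 parts tested 20.9% rose, a share that includes parts that passed only through the silenced libraries. The share among parts with a control mean of at least 10 was not counted. Parts 3, 5 and 6, with 2.91 to 5.03 in control and 18.7 to 29.8 in silenced cells, passed the filter only through the silenced libraries and so had to differ. Part 4 (nt 2303 to 3069) was below the filter and not tested, so no test supports a rise in parts 3 to 6. The hotspot rose from 580 and 745 in Gal4 cells to 2527 and 2229 in Gal4-Panx-IDR cells (3.59-fold), and the rest of the element from 17.1 and 18.7 to 107 and 91.8 (5.58-fold), without overlap in either. In Gal4-Panx-IDR cells the sense coverage above 3 times its mean extended from nt 5134 to 5733, with a mean of 1515 and 64.5% of the sense coverage. A further run from nt 1354 to 1488 had a mean of 750 and 7.18% of it.

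Inside the retained antisense stretch of Stalker2 sense coverage stayed low beside the hotspot. It was 4.09 and 3.37 in Gal4 cells, and 28.7 and 25.7 in Gal4-Panx-IDR cells, a 7.29-fold difference of means without overlap, and it held 2.26% ± 0.60 and 3.67% ± 0.083 (SD, n = 2) of the sense coverage. The hotspot itself lay outside the stretch, and its antisense coverage, 2091 and 2643 in Gal4 cells, was 683 and 753 in Gal4-Panx-IDR cells, or 0.303 of the control. There sense and antisense coverage thus moved in opposite directions on the same 283 nt.

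**Figure D4:**
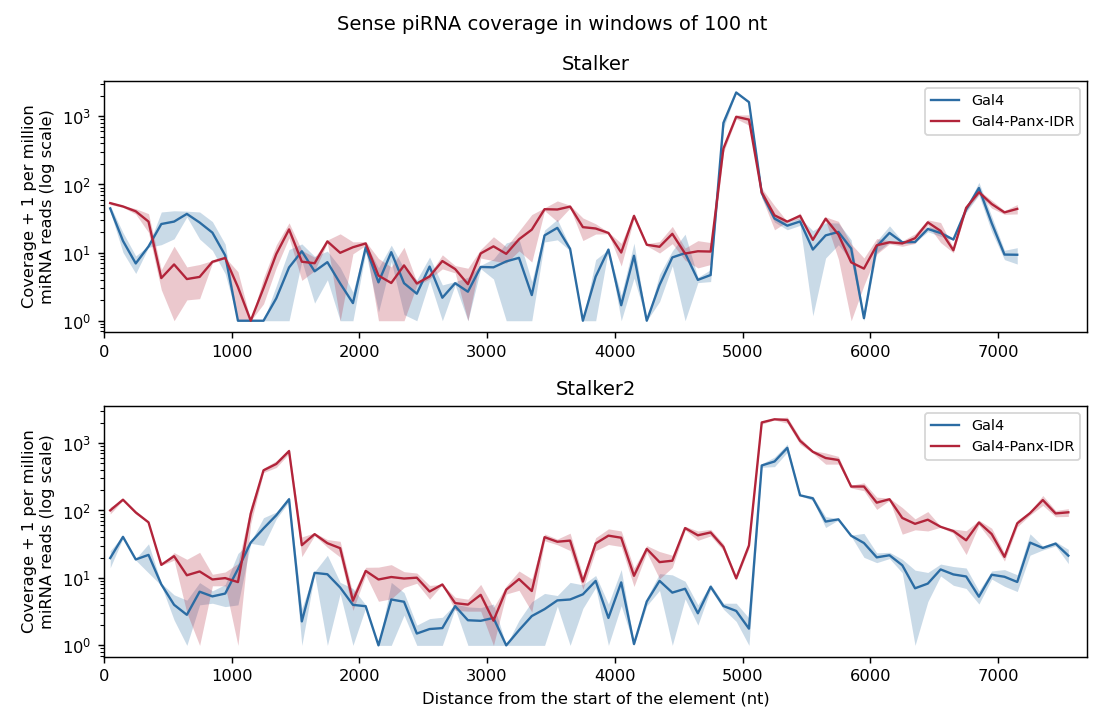
Sense coverage plus 1 per 1000000 miRNA reads (log axis) in windows of 100 nt along Stalker (top) and Stalker2 (bottom), against the distance from the start of the element in nt, as group means (lines) with the range of the 2 libraries (bands). The peak of Stalker around nt 5000 is lower in silenced than in control cells. In 63 of 76 windows of Stalker2 both silenced libraries lie above both controls, a count not made for other elements. The highest levels of Stalker2 lie after nt 5134 and near nt 1400.

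On Armi depletion less sense coverage was left in the hotspots than in the rest of each element. The hotspot had 4.36% of the siLuc sense coverage left in Stalker and 7.03% in Stalker2, against 10.7% and 24% outside. The ratio of hotspot to remainder went from 180 ± 2.1 (SD, n = 3) to 73.8 ± 7.7 in Stalker and from 45.9 ± 1.9 to 13.5 ± 0.81 in Stalker2 (exact permutation p = 0.1 each). Only 2 parts of each element passed the filter on the sense strand, and all 4 fell, as did 99.6% of the 230 parts tested, while 0.435% rose. The coverage outside the hotspots in siArmi cells, 0.586 to 0.632 in Stalker and 1.33 to 1.73 in Stalker2, was of the order of what 1 read adds at a position.

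**Figure D5:**
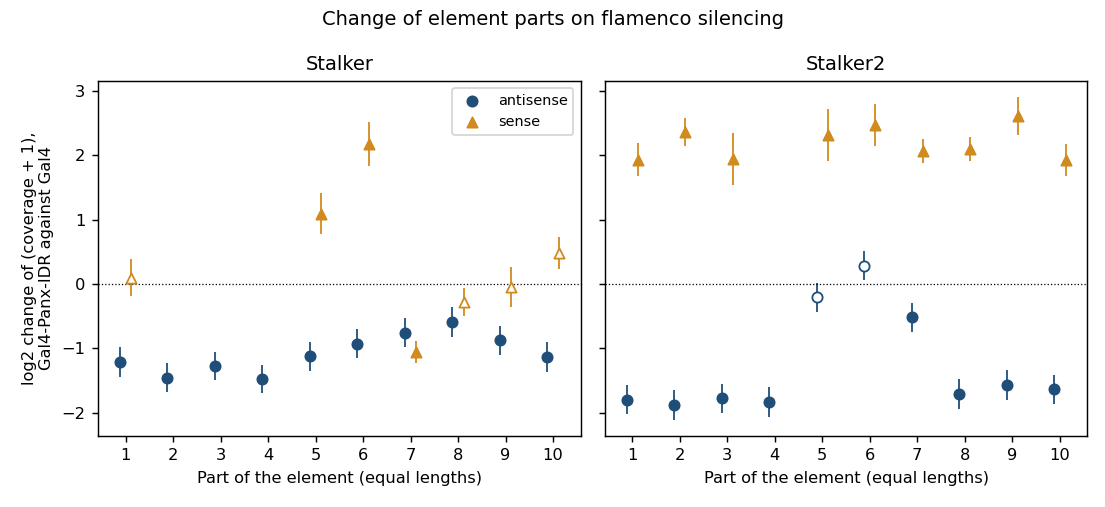
The log2 change of (coverage + 1) between Gal4 and Gal4-Panx-IDR cells in each of 10 equal parts, for antisense (blue circles) and sense (orange triangles), with bars of 1 SE from limma; filled symbols passed an adjusted p of 0.05 and open ones did not. Antisense parts 5 and 6 of Stalker2 are open and near 0 at −0.21 and 0.29, the other parts of Stalker2 are lower, and 9 sense parts of Stalker2 lie between 1.93 and 2.61, of which parts 3, 5 and 6 passed the filter only through the silenced libraries.

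The LTRs were located from the coverage itself, since reads that match both repeats of 1 consensus were split evenly between both places. The first and last 407 nt of Stalker had equal coverage, within 1%, at 92.1% of covered positions, and the first and last 424 nt of Stalker2 at 86.8%. In siLuc cells the LTRs had 0.747 ± 0.011 (SD, n = 3) of the antisense coverage of the internal region in Stalker and 0.660 ± 0.009 in Stalker2.

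On flamenco silencing less was left in the LTRs than in the internal region of each element. Antisense coverage of the Stalker2 LTRs was 1250 and 1530 in Gal4 cells, and 376 and 432 in Gal4-Panx-IDR cells, or 0.291 of the control. Its internal region, which holds the retained stretch, had 0.551 left. That stretch was chosen for a high ratio. In all of Stalker2 outside it, LTRs included, 0.309 was left on day 6 over Gal4 replicate 1. On day 7 over Gal4 replicate 2 it was 0.287, so the LTRs were close to the element outside the stretch. For Stalker the LTRs had 0.407 and the internal region 0.457 left. The ratio of LTR to internal coverage went from 0.678 ± 0.004 (SD, n = 2) to 0.358 ± 0.034 in Stalker2 and from 0.771 ± 0.008 to 0.685 ± 0.027 in Stalker (exact permutation p = 0.33 each). Sense coverage of the LTRs was 17.9 and 23 in control and 38.9 and 45.4 in silenced cells for Stalker, and 19.4 and 29.3 against 92.1 and 101 for Stalker2, higher without overlap in both.

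Antisense coverage was uneven along Stalker and smoother along Stalker2. In siLuc cells the highest position of Stalker, nt 980, had a coverage of 19090, against a median of 1546 over the element. Positions above 3 times the median took up 9.12% of Stalker and formed 13 runs, the longest from nt 2032 to 2226. In Stalker2 they took up 1.24% of the length, in 4 short runs between nt 3287 and 4097, all inside the retained stretch, with a highest position of 4443 at nt 3879 against a median of 1102.

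The height of these peaks above the remainder was followed in each group. The ratio of peak to other positions was 4.11 ± 0.079 (SD, n = 3) in siLuc and 4.65 ± 0.25 in siArmi cells for Stalker (exact permutation p = 0.1), and 3.33 ± 0.033 and 3.33 ± 0.33 for Stalker2 (exact permutation p = 1). On flamenco silencing it went from 3.50 ± 0.090 to 2.90 ± 0.18 (SD, n = 2) in Stalker and from 3.03 ± 0.20 to 5.13 ± 0.35 in Stalker2 (exact permutation p = 0.33 each). The Stalker2 peaks all lie inside the stretch that was chosen for a high ratio. Their rise on silencing follows from that choice and is no separate result.

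Runs of at least 50 nt below 10% of the mean antisense coverage of siLuc cells were rare. In Stalker they spanned nt 394 to 476, across the end of the first LTR, and nt 2767 to 2873. In Stalker2 there was 1, from nt 4120 to 4169, within the retained stretch. No library had any coverage on either strand at 44 positions of Stalker and 46 of Stalker2. Reads that also match another element were dropped, so such positions can lack uniquely assigned reads; their sequence was not tested.

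Across positions the antisense profiles of control and treated groups were alike except in Stalker2 on flamenco silencing. Pearson's r of group means over the 7256 positions of Stalker was 0.97 between siLuc and siArmi cells and 0.94 between Gal4 and Gal4-Panx-IDR cells. Over the 7672 positions of Stalker2 it was 0.90 and 0.70, while replicates in that experiment had 0.97 (Gal4) and 0.99 (Gal4-Panx-IDR). Neighbouring positions share reads, so these values are descriptive only. Between the controls of both experiments r was 0.90 for Stalker and 0.84 for Stalker2.

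Some other elements varied over the 10 libraries more like each member than the members did like each other. By the root mean square difference of centred log2 antisense levels over the 10 libraries, the nearest of 64 elements to Stalker were Juan (0.148), gypsy5 (0.176) and gypsy6_new (0.187). The nearest to Stalker2 were 297 (0.161), F-element (0.199) and Doc (0.204). These distances span both experiments, which differ in adaptor. Stalker and Stalker2 differed by 0.260, which placed Stalker2 at rank 11 for Stalker and Stalker at rank 6 for Stalker2.

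A list of related LTR retrotransposons gave a frame for these values. Of 9 elements listed, 7 were in the data, among them mdg1, blood, Tabor, flea, gypsy and gtwin. On flamenco silencing 6 of these 7 fell in antisense coverage and flea was not called, with a median log2 change of −1.45, against −1.14 and −0.91 for Stalker and Stalker2 and −0.57 for all elements, of which 53.4% fell. On the sense strand, where 25.9% of all elements rose, only blood and gypsy had control means above the filter of 10. Sense coverage of blood rose from 24.7 and 30.3 in Gal4 cells to 124 and 128 in Gal4-Panx-IDR cells (log2 change 2.16, limma adjusted p = 1.76e-17) and that of gypsy from 11.7 and 12.4 to 132 and 151 (3.45, limma adjusted p = 1.35e-33). The listed elements that passed only through the silenced libraries had to differ and are not counted, although the 25.9% over all elements includes them. On Armi depletion all 7 fell in antisense coverage, with a median of −4.33, as did 100% of all elements tested, so this count says nothing particular to the list.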

How the data were processed

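The deposited tables held coverage signal per position and strand of 122 transposon consensus sequences in 10 small RNA libraries. Per the labels and the study's methods, the authors isolated Argonaute-bound small RNAs, removed adaptors with cutadapt, kept reads of 24 to 35 nt, aligned them with Bowtie to RepBase-based consensus sequences and scaled the coverage to 1000000 miRNA reads. HOMER is also named, and the versions used for these libraries are not given in the sources used here. Reads that matched several consensus sequences were dropped, which lowers elements that share sequence, and reads that matched 2 places of 1 consensus counted 0.5 at each. Antisense values are stored as negative numbers, and their size was used.

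The mean coverage per nt was put on the scale log2(coverage + 1), and elements, or 10 equal parts of each, were tested with limma (3.58.1, R 4.3.3) where their mean was at least 10 in the libraries compared. The spread was allowed to follow the level. Benjamini-Hochberg adjustment ran over all features tested, and the threshold was 0.05. Coverage is not a count, so no count model was used. Single ratios had two-sided exact permutation tests over libraries. A fold change on the log2(coverage + 1) scale understates the change of low values. The smallest step between values, equal to 0.5 read, gave the depth, and the numbers of reads given are the fewest that the coverage allows. The fits were tested on simulated data. Python 3.11.15, numpy 2.4.6, pandas 2.3.3, scipy 1.17.1 and matplotlib 3.10.9 were used.

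Members, lists and tests were chosen with earlier results of these data known. The named elements were Stalker, Stalker2, a fixed list of LTR retrotransposons and the 3 elements nearest to each member. The retained stretch and the sense hotspots were defined after the profiles had been seen. Alternatives were the pseudocount, filter, trend, scaling, median over positions, 20 parts, profile limits, the replicate block and leaving out each library.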

Additional observations from a re-analysis of the deposited data

How the results depend on the processing

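The direction of the miRNA-scaled changes of both elements on Armi depletion, and of antisense Stalker and sense Stalker2 on flamenco silencing, was the same with every pseudocount, filter, trend and left-out library tried. Scaling to the total transposon coverage or by the median ratio of elements removes any shift that all elements share, and with it most changes on Armi depletion. On Armi depletion, antisense counts of elements were then 23 lower and 9 higher with total scaling and 20 lower and 14 higher with median-ratio scaling, against 50 and 0. Sense counts were 13 lower and 3 higher, and 9 lower and 8 higher, against 29 and 0. Without the filter 120 antisense and 119 sense elements were lower. Sense Stalker changed by 0.074 with total scaling and 0.21 with median-ratio scaling. With either scaling 0 sense parts of each element were lower and 2 of Stalker2 were higher, and 1 antisense part of Stalker was higher with the median ratio; without the filter 10 sense parts of Stalker and 9 of Stalker2 were lower.

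On flamenco silencing, antisense Stalker2 changed by −0.23 with total scaling and −0.27 with median-ratio scaling (limma adjusted p = 0.0771 and 0.179). Elements with higher antisense coverage numbered 28 and 29, against 6, and with the median over positions 22 were lower and 3 higher. Sense elements numbered 8 lower and 28 higher with total scaling and 5 lower and 7 higher with the median over positions, against 19 and 14. Of antisense parts of Stalker, 6 were lower with either scaling, and 2 of Stalker2 were higher. Part 8 of Stalker changed by 0.081 and 0.053, part 5 of Stalker2 by 0.47 and 0.44, and part 7 of Stalker2 by 0.16 and 0.13 with total and median-ratio scaling. With total scaling 0 sense parts of Stalker were lower and 4 higher. Sense Stalker changed by −0.44 with the median ratio, 0.0062 with total scaling and 0.50 with the median over positions, and sense Stalker2 by 3.57 with that median, no longer called. Without the stretch or hotspot, alternatives chosen after seeing the data, the changes were −1.75 for antisense Stalker2, 0.51 for sense Stalker and 2.41 for sense Stalker2.

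The difference between treatments was −0.20 and −0.14 for antisense Stalker, 0.14 and 0.20 for antisense Stalker2, and −0.069 and −0.38 for sense Stalker with total and median-ratio scaling. The antisense Stalker to Stalker2 ratio changed by −0.038 on Armi depletion with a pseudocount of 10, and by 0.62 on flamenco silencing with the median over positions. Leaving out 1 library at a time, which on flamenco silencing assumes that a lone library varies like the pair in the other arm, gave −1.06 to −0.76 for antisense Stalker2, −0.79 to −0.52 for sense Stalker and 0 to 2 higher sense parts of Stalker on flamenco silencing. The cause of these shifts was not tested beyond the scaling itself.

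Same-numbered siLuc and siArmi libraries did not clearly deviate together. Pearson's r was −0.08, 0.02 and 0.23 over 50 elements on the antisense strand. On the sense strand it was 0.12, −0.39 and 0.27 over 29 elements. Such values cannot show a shift common to all elements of a library, so a shared origin is not excluded. With the replicate block antisense Stalker changed by −4.61 (limma adjusted p = 1.6e-43) and Stalker2 by −4.70, and no call of either element changed. No paired analysis was possible for flamenco silencing because the labels give a harvest day in 1 arm and a replicate number in the other. With 2 libraries per arm and 87066 to 151205 miRNA reads in each, low sense coverage limits the second experiment.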
